A study of Homo sapiens with 5 samples.

Results

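Long noncoding RNAs (lncRNAs) are transcripts that encode no known protein, and their genes often start at promoters of their own, at enhancers, or back to back with a protein-coding gene. The H3K27ac peaks described here lay at lncRNA starts that stand apart from coding promoters. A peak was a member when its center was within 1 kb of a lncRNA transcript start of GENCODE release 44 and more than 5 kb from every protein-coding transcript start, on chromosomes 1 to 22 or X of GRCh38. This rule took 924 of 20087 peaks. Another 2566 of the 3490 peaks within 1 kb of a lncRNA start had a coding start within 5 kb and were left out. Each member was named after the lncRNA with the nearest start, which gave 864 genes, of which 360 had a name in the HGNC nomenclature. The other members carried gene identifiers only or a name without an HGNC record.

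Acetylation of lysine 27 on histone H3 (H3K27ac) is laid down by the acetyltransferases p300 and CBP and is found at active promoters and enhancers, whether or not the transcript made there encodes a protein. Type I interferons such as IFN-β act through the JAK kinases on STAT transcription factors, which join IRF9 and bind the interferon-sensitive response element (ISRE). Several lncRNAs, among them LUCAT1, NRIR and BISPR, are known as interferon-responsive transcripts in other cells.

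All libraries came from HCT116, a cell line grown from a human colorectal carcinoma, in its derivative with CMV-osTIR1 and RAD21-mAC, in which the cohesin subunit RAD21 carries a degron tag. All cells were held for 6 h in medium with 0.1% DMSO. The ifnb group (2 libraries) then received IFN-β at 1000 unit/ml for 1 h, the mock group (2 libraries) received nothing more, and 1 input library served as background. The titles of the libraries give 60 min for the ifnb group and 0 min for the mock group, so IFN-β and the extra time in culture cannot be told apart. For each peak the deposited table gives the authors' mean of each group on a log2 scale of normalized reads, and no value per library. Every level below is such a mean without an SD, every difference is the IFN-β level minus the mock level on that log2 scale, and no difference could be tested. The cell type was checked on coding genes. A peak lay within 1 kb of a start of 8 of 10 epithelial and intestinal markers, with the highest mock level of each between 4.48 and 7.10, and of 2 of 10 markers of other cell types, COL1A1 and VIM, at 5.24 and 2.66. CDX1 and VIL1 were the intestinal markers without a peak.

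The sequences that follow were read from GRCh38 and serve as illustrations only. The first set was picked by both motif and difference, at peaks with 0.89 to 4.72 normalized reads in the mock group. The first set shows the core of the ISRE, which is GAAA, any 2 bases and GAAA again, at the 5 member peaks with the highest differences among those that held it and lay above 0. Each stretch runs 20 bases to either side of the core nearest to the peak center and is given on the strand that reads GAAA, with the core in capitals. They lie at chr16:50665458-50665507 (minus strand), chr1:120341969-120342018 (minus), chr10:4243680-4243729 (plus), chr2:87456156-87456205 (minus) and chr3:107240747-107240796 (plus).
ENSG00000260249: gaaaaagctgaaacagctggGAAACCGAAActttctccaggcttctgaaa
ENSG00000290569: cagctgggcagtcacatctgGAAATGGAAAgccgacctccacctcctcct
LINC00702: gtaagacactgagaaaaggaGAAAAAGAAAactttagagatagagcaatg
CYTOR: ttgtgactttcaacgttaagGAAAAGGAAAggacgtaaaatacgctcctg
LINC00882: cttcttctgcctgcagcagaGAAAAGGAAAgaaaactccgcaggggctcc

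The second set compares the starts of the 2 HGNC-named lncRNAs with the highest differences among well covered members with RENO1, which had one of the lowest, and with MALAT1. Well covered means a mean signal over both groups at or above the median of all peaks, 4.75 on the log2 scale or 26.9 normalized reads. Each window holds 250 bases before and 50 bases from the transcript start nearest to the peak center, read along the lncRNA's strand, with every CG dinucleotide in capitals. The positions are chr17:72407519-72407818 (minus) for LINC00511, chr7:130853482-130853781 (plus) for LINC00513, chr17:81345917-81346216 (minus) for RENO1 and chr11:65498138-65498437 (plus) for MALAT1.
LINC00511: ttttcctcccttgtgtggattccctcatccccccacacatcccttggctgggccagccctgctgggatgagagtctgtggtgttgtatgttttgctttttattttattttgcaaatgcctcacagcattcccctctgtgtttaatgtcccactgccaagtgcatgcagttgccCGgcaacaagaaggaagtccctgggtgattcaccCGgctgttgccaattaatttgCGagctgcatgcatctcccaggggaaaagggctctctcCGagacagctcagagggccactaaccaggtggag
LINC00513: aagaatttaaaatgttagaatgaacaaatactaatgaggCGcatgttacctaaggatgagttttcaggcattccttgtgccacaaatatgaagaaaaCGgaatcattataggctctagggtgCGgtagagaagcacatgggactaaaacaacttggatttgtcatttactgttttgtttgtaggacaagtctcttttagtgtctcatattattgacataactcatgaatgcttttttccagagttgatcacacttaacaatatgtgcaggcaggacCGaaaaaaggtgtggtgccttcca
RENO1: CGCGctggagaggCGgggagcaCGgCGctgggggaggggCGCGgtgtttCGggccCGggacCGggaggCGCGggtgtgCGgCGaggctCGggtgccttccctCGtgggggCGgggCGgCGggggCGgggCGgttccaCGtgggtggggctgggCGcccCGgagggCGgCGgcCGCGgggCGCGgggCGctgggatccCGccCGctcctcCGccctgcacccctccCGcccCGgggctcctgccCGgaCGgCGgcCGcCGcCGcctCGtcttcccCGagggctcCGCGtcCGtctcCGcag
MALAT1: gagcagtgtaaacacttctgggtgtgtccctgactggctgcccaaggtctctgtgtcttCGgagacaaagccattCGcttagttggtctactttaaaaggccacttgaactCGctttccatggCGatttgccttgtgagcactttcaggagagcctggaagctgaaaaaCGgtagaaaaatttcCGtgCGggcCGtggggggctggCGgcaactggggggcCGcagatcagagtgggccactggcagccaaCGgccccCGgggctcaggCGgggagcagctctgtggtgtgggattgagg
LINC00511 and LINC00513, which had higher levels with IFN-β, held 4 CG dinucleotides each in these windows. RENO1 held 48 and MALAT1 held 13. GC content was 52.7% and 37.7% at the first pair, 83.3% at RENO1 and 58.3% at MALAT1.

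The members carried moderate acetylation. Their median mock level was 4.63, or 24.8 normalized reads per peak, and their median IFN-β level was 3.95, or 15.5 reads. Mock levels ran from -0.17 to 8.22. Coding promoter peaks, with a center within 1 kb of a coding start (n = 11327), had a median mock level of 5.52. Other distal peaks, more than 5 kb from coding starts and more than 1 kb from lncRNA starts (n = 6033), had 4.30. The lncRNA starts thus lay between the 2 classes in signal. Of the 924 members, 355 (38.4%) were well covered, against 65.5% of coding promoter peaks and 29.2% of other distal peaks. Nearly all members had the same width of 1000 bp (857 of 924), so their levels compare without a correction for length.

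**Figure D1:**
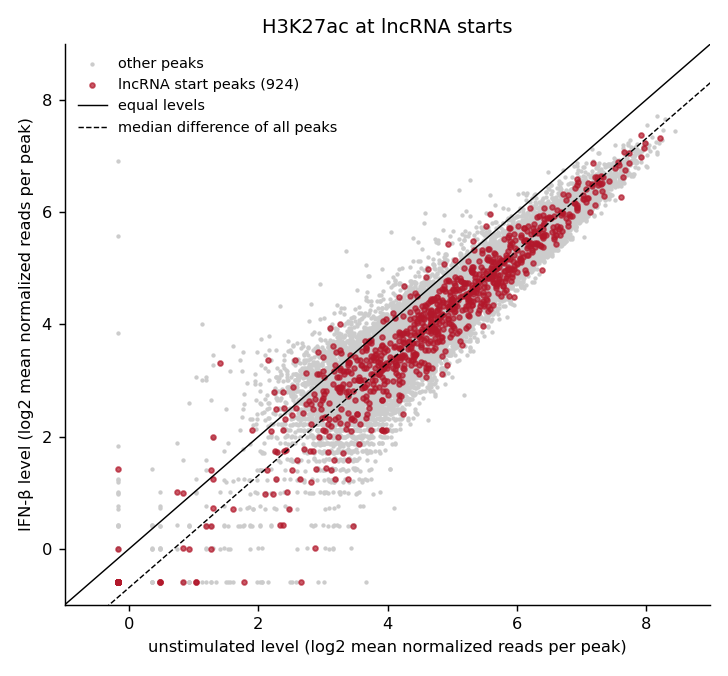
Each point is 1 peak, with the authors' mean mock level on the x axis and the authors' mean IFN-β level on the y axis, both as log2 of normalized reads. The 924 lncRNA start peaks (red) follow the cloud of the other peaks (grey) along the dashed line, which marks the median difference of all peaks of -0.69. Points at the left and lower edges sit at the lowest values of the groups, -0.17 and -0.59.

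With IFN-β, 875 of the 924 members had a lower level than in the mock group, 47 had a higher level and 2 were equal. The median difference was -0.655, with a spread over members of 0.455 (SD) and a range from -3.25 to 1.91. Over all peaks the median difference was -0.69, so a shift of this size was present over the whole table. The 47 members above 0 made up 5.09%, beside 5.93% of all peaks. Read against the median of all peaks, 494 members (53.5%) lay above it, beside 49.1% of all peaks. Members more than 0.5 above that median numbered 91 (9.85%, beside 10.8% of all peaks), and members more than 0.5 below it numbered 79 (8.55%, beside 7.53%). The shares at lncRNA starts were thus near the background in both directions. Coding promoter peaks had a median difference of -0.75 and other distal peaks one of -0.54, with 2.82% and 11.1% above 0.

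A group of 82 members (8.87%) sat at the lowest value of both groups, -0.17 and -0.59, which correspond to under 1 normalized read, and their difference was fixed at -0.42 for that reason. The same held for 460 of all peaks (2.29%). Of these 82 members, 65 had no HGNC identifier, and 13 lay on chromosome 21, where they made up 13 of 22 members. H19, an imprinted maternally expressed lncRNA, and MIR1302-2HG were among them, so nothing can be said of their response from these values. Why these peaks held so few reads was not tested. Counting every member at the lowest value of either group, 92 were at it. Without them 832 members remained, with a median mock level of 4.78 and a median difference of -0.69, beside -0.70 for all peaks treated alike. Coding promoter peaks then had -0.76 and other distal peaks -0.56. On either side of the limits of the rule, the 23 members with a start more than 900 bp from the center had a median difference of -0.79 and the 11 peaks with a start just past the limit, up to 1100 bp away, had -0.74, while the 16 members with a coding start between 5.0 and 5.5 kb away had -0.65 and the 11 peaks with one between 4.5 and 5.0 kb had -0.86.

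**Figure D2:**
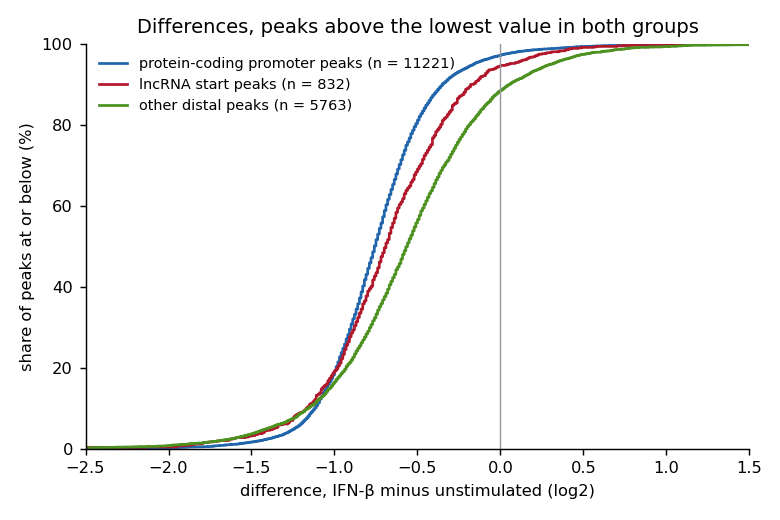
The curves give the share of peaks (y axis, percent) at or below each difference (x axis, log2 IFN-β minus mock) for coding promoter peaks (blue), lncRNA start peaks (red) and other distal peaks (green), leaving out peaks at the lowest value of a group. The red curve runs between the others, with medians of -0.76, -0.69 and -0.56.

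LINC00963 had the highest mock level of all members, 8.22 (298.2 reads), and an IFN-β level of 7.32. OLMALINC, named for oligodendrocyte maturation and a neighbor of the desaturase gene SCD, had 7.99 and 7.24. MALAT1, an abundant nuclear RNA held in speckles, had 7.97 and 7.14. DLGAP1-AS1, in an intron of DLGAP1, had 7.74 and 7.05. LINC02298 had 7.68 and 6.75, and LINC00886 had 7.64 and 6.63. SLC38A4-AS1 had 7.66 and 7.08 over a wider peak than the others (chr12:46382625-46384492). RENO1, described as a regulator of neuronal differentiation, had 7.61 and 6.27. These 8 had the highest mock levels among HGNC-named members. All 8 had lower levels with IFN-β, by -0.58 at SLC38A4-AS1 to -1.34 at RENO1, and the other 6 differences lay between these. In the highest of 4 equal parts of mean signal, which held all 8, 0.796% of all peaks lay above 0.

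Among the 355 well covered members, where a read more or less weighs little, 7 lay above 0 (1.97%, beside 1.59% of all well covered peaks), and the median difference was -0.72 (beside -0.74). LINC00511, a lncRNA linked to several cancers that lies between SOX9 and SLC39A11, had the highest difference. Its peak at chr17:72406770-72407770 went from 30.7 reads (4.94) in the mock group to 43.1 reads (5.43) with IFN-β, a difference of 0.49. LINC00513, described as a positive regulator of type I interferon signaling in lupus, came next at chr7:130853449-130854449, with 47.8 and 62.7 reads (5.58 and 5.97) and a difference of 0.39. LINC02577 had 5.52 and 5.75, a difference of 0.23, and LINC01119 had 5.05 and 5.14, a difference of 0.09. These were the 4 HGNC-named well covered members above 0. The next were MSRB3-AS1 at -0.02, CASC19 and SCIRT at -0.12, MIR4280HG at -0.13, LINC00887 at -0.14 and LINC02542 at -0.15. All 10 had a member center between 26 and 893 bp from the start, and each lay at least 28503 bp from the nearest coding start.

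At the other end, EMSLR had the lowest difference of the HGNC-named well covered members. Its level was 62.2 reads (5.96) in the mock group and 22.3 reads (4.48) with IFN-β, a difference of -1.48. RENO1 followed with 195.4 and 77.2 reads and a difference of -1.34. The hosts of several microRNAs were in this group. MIR193BHG had a difference of -1.32 (5.56 and 4.24), MIR9-1HG had -1.31 (5.58 and 4.27) and MIR34AHG, which carries the p53-induced miR-34a, had -1.24 (6.15 and 4.91). LINC00466, beside FOXD3, had -1.25, and LINC02846 had -1.24. DLEU2 and THORLNC had -1.17 each. These 9 starts had GC contents between 57.4% and 74.3% in the 1000 bases around the peak center, and the 10 highest had between 33.9% and 60.3%.

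Members of any coverage reached further, on few reads. ENSG00000260249, at chr16:50664684-50665684 and 16118 bp from the nearest coding start, that of SNX20, had the highest difference of all members. It went from 2.66 normalized reads (1.41) to 9.99 reads (3.32), a difference of 1.91. ENSG00000290569 had 1.60, from the lowest mock value. LINC00702, at chr10:4243176-4244176, had 4.44 and 10.3 reads and a difference of 1.21. ENSG00000234703, antisense in an intron of RUNX1, had 0.83 (8.63 and 15.3 reads). LINC01572 had 0.80, ENSG00000257496 had 0.74 and CYTOR, a cytoskeleton-linked lncRNA named in several cancers, had 0.70 on 2.45 and 3.97 reads. At the low end stood ENSG00000231081 with -3.25, LINC02236 with -3.06 and LINC01138 with -2.86, each from under 16 reads in the mock group. Of the 47 members above 0, 33 had under 16 mock reads, and their median was 8.88 reads. Among all peaks above 0, 832 of 1192 had under 16.

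In sequence too, the members lay between both other classes. Median GC content in the 1000 bases around the center was 56.7% at members, 64.2% at coding promoter peaks and 45.3% at other distal peaks. The GC box (GGGCGG), bound by SP1 and its relatives, stood in 68.2% of members, 90.8% of coding promoter peaks and 29.5% of other distal peaks. The AP-1 site (TGANTCA), bound by FOS and JUN and frequent in enhancers, ran the other way, with 33.1%, 14.9% and 62.3%. The TATA box (TATAAA) stood in 29.7%, 15.6% and 49.8%, the ETS site (CCGGAAG) in 21.1%, 30.0% and 7.24%, and the TCF/LEF site (CTTTGAT), read by the Wnt pathway that is active in HCT116, in 8.23%, 5.39% and 14.4%. Over all peaks on these chromosomes the shares were 67.3% for the GC box, 33.4% for AP-1, 28.5% for the TATA box, 20.9% for ETS and 8.64% for TCF/LEF. Each motif was searched on both strands and counted once per window, and a window with several motifs counted for each. A match describes letters and is no evidence of binding.

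The ISRE core stood in 119 members (12.9%), beside 8.66% of coding promoter peaks, 16.5% of other distal peaks and 11.6% of all peaks. It was present in 11 of the 47 members above 0 (23.4%), in 16 of the 91 more than 0.5 above the median of all peaks (17.6%) and in 8 of the 79 more than 0.5 below it (10.1%). Among the 20 well covered members with the highest differences it stood in 2 (10.0%). Other motifs were also more frequent in the 47 than in all members, AP-1 with 44.7% beside 33.1% and TCF/LEF with 14.9% beside 8.23%. The share with the ISRE core among all peaks above 0 was not computed, so the 23.4% has no matching background. Members with and without the core had median differences of -0.64 and -0.66. The cores printed above were those of ENSG00000260249, ENSG00000290569, LINC00702, CYTOR and LINC00882, the last with a difference of 0.56 on 4.72 and 6.96 reads. At LINC00702 the core lay 24 bp from the transcript start and was 1 of 3 in the window, while at ENSG00000260249 it lay 579 bp away. MIR34AHG and MIR29B2CHG held the core too, and their differences were -1.24 and -1.22. LINC00511 and LINC00513 had no core in the window of these peaks.

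The difference moved with base composition at lncRNA starts as it did over the table. All peaks were split into 3 equal parts by GC content. The 288 members in the lowest part (up to 51.4%) had a median difference of -0.545, the 401 in the middle part had -0.66, and the 235 in the highest part (from 63.8%) had -0.77. The medians of all peaks in these parts were -0.52, -0.70 and -0.79, close to those of the members. Across the 832 members off the lowest values, Spearman's rho between difference and GC content was -0.246, as a description over peaks that share the same libraries. Signal moved with it as well. With all peaks split into 4 equal parts by mean signal, from the lowest to the highest, the members' median difference was -0.42, -0.675, -0.70 and -0.74, beside -0.54, -0.64, -0.70 and -0.77 for all peaks. The first of these values sat on the members at the lowest level. The part of GC content and of signal in these differences was not tested.

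**Figure D3:**
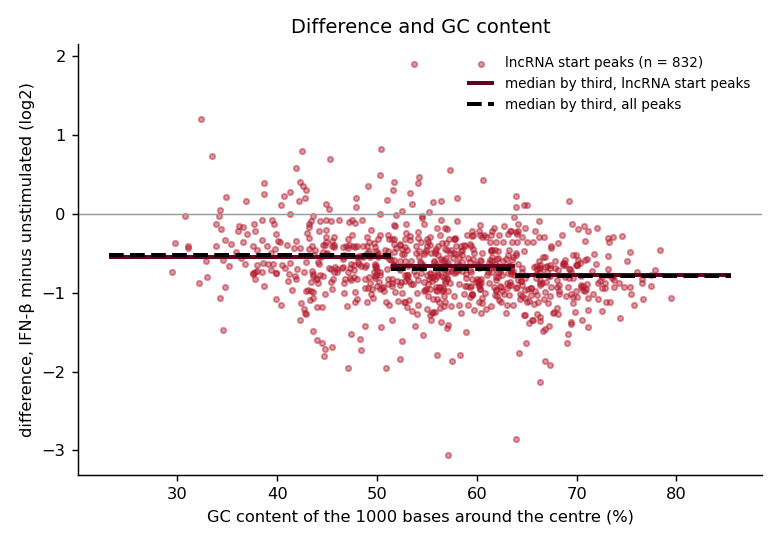
Each red point is 1 of 832 lncRNA start peaks above the lowest value of both groups, with GC content of the 1000 bases around its center (x axis, percent) against the difference (y axis, log2 IFN-β minus mock). The horizontal lines give medians in 3 equal parts of GC content for all 924 members (solid) and for all peaks (dashed), which step down from -0.545 to -0.77 and from -0.52 to -0.79.

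Of 16 listed lncRNAs linked to interferon responses, 2 led member peaks. LUCAT1, which is induced by interferon in myeloid cells and limits interferon-stimulated genes there, had a pair of peaks on chromosome 5. The peak at chr5:91311648-91312648 had 20.4 reads (4.35) in the mock group and 22.8 reads (4.51) with IFN-β, a difference of 0.16. The peak further upstream, at chr5:91313656-91314656, had 10.4 and 9.71 reads and a difference of -0.10. HLA-F-AS1, antisense in the HLA class I region, had 8.28 and 7.06 reads and a difference of -0.23. All 3 lay above the median of all peaks (beside 49.1% of all peaks), and 2 of them by more than 0.5 (beside 10.8%). With levels of at most 22.8 reads, these values rest on little signal. All peaks were split into 4 equal parts by mean signal. The LUCAT1 peak above 0 fell in the part from 3.75 to 4.75, where 6.85% of all peaks lay above 0. The other 2 peaks fell in the lowest part, where 13.7% did.

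In all, 8 members had an interferon-stimulated gene as the nearest coding gene, out of 90 listed. Among them were the HLA-F-AS1 peak, LINC02569 next to HLA-E, ENSG00000285761 next to HLA-F, ENSG00000289559 next to PSMB9, LINC02427 next to IRF2 and the pair of ENSG00000267737 peaks next to SOCS3. The distances of these peaks from the coding start ran from 17705 to 62784 bp. The median difference of the 8 was -0.68, with a range from -0.92 to -0.23, and 0 of 8 lay above 0 (beside 5.93% of all peaks). The strongest was the ENSG00000267737 peak nearer SOCS3, with 104.7 and 63.6 reads and a difference of -0.72. This median lay next to the -0.69 of the whole table.

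Of 18 listed nuclear, dosage and scaffold lncRNAs, 8 led 11 members, with a median difference of -0.80, beside -0.69 for all peaks, and a range from -1.52 to -0.30. None of the 11 lay above 0, where 5.93% of all peaks and 1.59% of all well covered peaks lay. JPX, an activator of XIST on the X chromosome, had the lowest, from 35.5 to 12.4 reads (5.15 and 3.63), a difference of -1.52. FTX, in the same X inactivation center, had 3 peaks with -0.48, -0.51 and -0.77, and FIRRE, an X-linked repeat-containing RNA, had -0.49. KCNQ1OT1, the imprinted antisense RNA inside KCNQ1, had -1.05 (5.44 and 4.39). NORAD, which binds PUMILIO proteins, had -1.03 (6.41 and 5.38). DANCR had -0.94 and EPB41L4A-AS1 had -0.80. At MALAT1 the 5′ peak had -0.83, and a weaker peak further into the gene, with 15.1 and 12.3 reads, had -0.30.

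**Figure D4:**
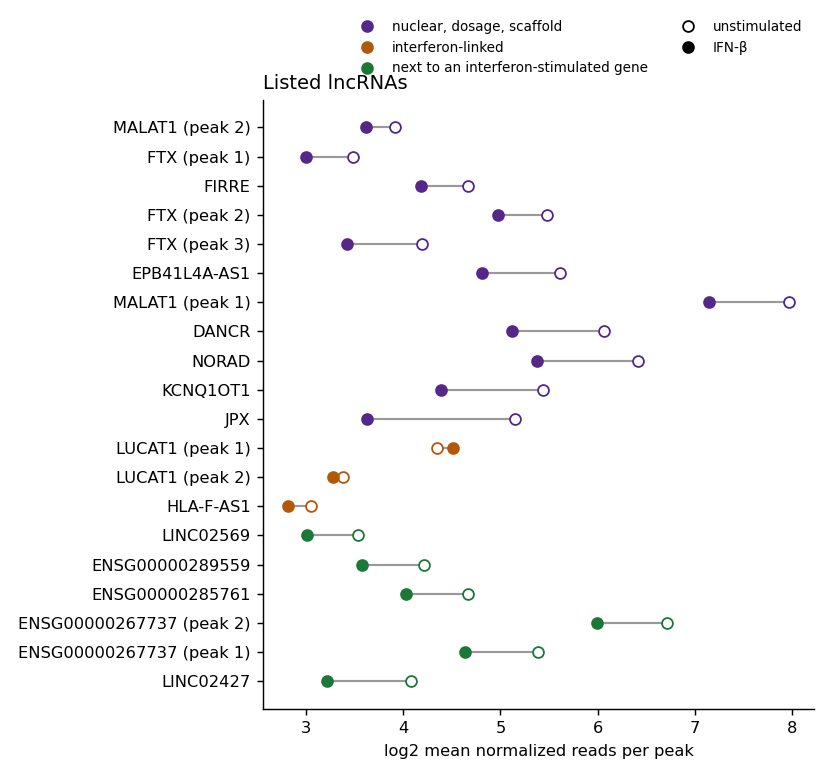
Open circles give the mock level and filled circles the IFN-β level (x axis, log2 of mean normalized reads) of each member peak of the nuclear, dosage and scaffold list (purple), the interferon-linked list (orange) and other named members next to an interferon-stimulated gene (green). The filled circle lies left of the open circle in every row except LUCAT1 peak 1, which went from 4.35 to 4.51. Peaks of 1 gene are numbered along the chromosome.

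Genes that host small RNAs in their introns or exons are the snoRNA hosts (SNHG), which are highly transcribed in growing cells, and the microRNA hosts. Of 114 such lncRNA genes in the annotation, 39 had a member start, with 45 peaks. Their median mock level of 5.96 stood above the 4.63 of all members, and their median difference was -0.80. No peak of the 45 lay above 0 (beside 5.93% of all peaks and 1.59% of all well covered peaks). Of the 45, 4 lay more than 0.5 below the median of all peaks (beside 7.53% and 3.03%). Another 2 lay more than 0.5 above it (beside 10.8% and 3.99%). Some of the 45, such as MIR4435-2HG, were not well covered. MIR17HG, which carries the miR-17-92 cluster, had 163.1 and 78.2 reads (7.35 and 6.29), a difference of -1.06. MIR31HG, on chromosome 9 near the interferon gene IFNE, had 190.0 and 118.6 reads, a difference of -0.68. SNHG25 had -0.95, SNHG7 had -1.02, SNHG6 had -0.74 and SNHG8 had -0.63. MIR100HG had 3 peaks, at -0.29, -0.74 and -0.96, with the middle 1 by far the strongest (7.52). The least negative were MIR4435-2HG at -0.09, on 4.56 and 4.29 reads, and MIR4280HG at -0.13. The median GC content of these peaks was 61.4%, above that of all members, and all peaks in the highest of the 3 parts of GC content had a median difference of -0.79.

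The cancer-linked list gave 24 members from 11 of 33 genes, with a median difference of -0.675 and a range from -1.44 to 0.70. UCA1, a lncRNA of urothelial and colorectal cancers, had 151.2 and 94.4 reads and a difference of -0.68. PVT1, downstream of MYC, had 3 peaks at -0.77, -0.84 and -0.98. CASC19, in the MYC region linked to colorectal cancer risk, had -0.12 at its stronger peak (73.5 and 67.6 reads) and -0.43 at the weaker. ELFN1-AS1, inside ELFN1, had -1.03, and LINC01234 had -0.74. DLEU1 and DLEU2, the oppositely oriented genes deleted in leukemia, had -0.91 and -1.17 at neighboring peaks on chromosome 13. Each led another peak there, with -0.41 for DLEU1 and -0.96 for DLEU2.

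Several genes led more than 1 member. There were 43 such genes with 104 peaks, and the median range (highest minus lowest) of the difference within a gene was 0.50. At ENSG00000274333 and ENSG00000290573 every peak sat at the lowest mock value with a difference of -0.42, so their range was 0.0 for that reason. The range exceeded 1 in 4 genes. LINC00511 led 9 peaks over chromosome 17, more than any other gene, with mock levels from 3.76 to 6.06. Along the chromosome their differences were -0.73, 0.49, -0.67, -1.44, -0.42, -0.46, -0.66, -0.29 and -0.75. The highest and the lowest of all 9 thus lay near each other, with a peak at -0.67 between them, at chr17:72406770-72407770 and chr17:72430308-72431308, and the latter had 18.1 and 6.68 reads. LINC00963 led 6 peaks with mock levels from 3.67 to 8.22, and 5 of their differences lay between -0.78 and -0.96, with -1.34 at the weakest. LINC01572 had 0.05, 0.80 and -0.49, and LINC01138 had -1.09, -0.99 and -2.86, the last from 7.31 to 1.01 reads.

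**Figure D5:**
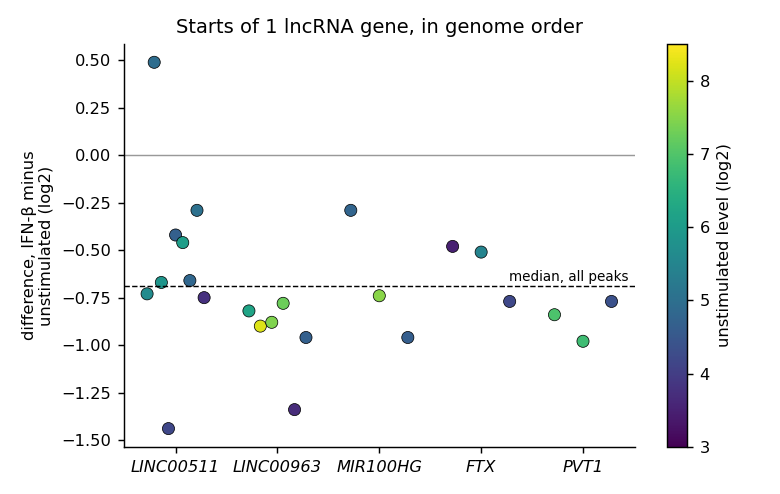
Each point is 1 member peak of the named lncRNA gene, in order along the chromosome from left to right, with the difference (log2 IFN-β minus mock) on the y axis and the mock level as color. The 9 LINC00511 peaks spread from -1.44 to 0.49 around the dashed median of all peaks (-0.69), while the 6 LINC00963 peaks, the 3 PVT1 peaks and the 3 FTX peaks spread over 0.56, 0.21 and 0.29.

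Most members (832) lay outside protein-coding genes, 84 lay in an intron and 8 overlapped an exon. The intronic members had a median difference of -0.635, beside -0.66 outside genes. Of the 84, 9 lay above 0 (10.7%, beside 5.93% of all peaks and 11.1% of other distal peaks). Of the same 84, 18 lay more than 0.5 above the median of all peaks (beside 10.8% of all peaks and 19.2% of other distal peaks). That share was near the one of other distal peaks. More than 0.5 below the median lay 0 of the 84 (beside 7.53% and 8.75%). Besides the RUNX1 intron, those above 0 included ENSG00000287245 in RDX with 0.58, HDAC2-AS2 in HDAC2 with 0.30 and ENSG00000274598 in SSH1 with 0.20 (4.87 and 5.07). At these sites reads of the lncRNA start and of an element of the host gene cannot be told apart. Where lncRNAs started on both strands within 1 kb of the center (143 members), the median difference was -0.69, and at the other 781 it was -0.63.

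Among genes with an HGNC identifier, the 190 LINC peaks had a median difference of -0.67, the 59 antisense (AS) peaks -0.58 and the 40 small RNA host peaks -0.775. The 525 peaks without an HGNC identifier had -0.63, and some of these carried LINC or AS names too. The last group held 65 of the 82 members at the lowest values. The center of a member lay a median of 212.5 bp from the lncRNA start and 36204.5 bp from the nearest coding start, and 214 members lay more than 100 kb from any coding start. Median differences were -0.66 for centers at most 250 bp from the start, -0.66 for those up to 500 bp and -0.62 for those further away, so the distance from the start went with little change in the difference.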

How the data were processed

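H3K27ac ChIP-seq reads were trimmed, aligned to GRCh38, called into peaks against the input and counted per peak by the authors, and the submitters' processing notes name bcl2fastq 2.17, fastp 0.19.3, Bowtie2 2.25, SAMtools, MACS2, DiffBind and DESeq2. The deposited table holds log2 values, the log2 of the authors' mean normalized reads of each group, rounded to 0.01. Its columns of fold changes, p-values and FDR hold the authors' own comparison and were not used. No value or depth per library was given in the table, so neither replicate error nor a test could be computed, and precision was judged from the reads behind each mean.

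Differences were computed from both group columns, and reads as powers of 2. Transcript starts came from all transcripts of lncRNA and protein-coding genes of GENCODE release 44. Listed lncRNAs, HGNC-named members with the 8 highest mock levels, and members next to a listed interferon-stimulated gene were named. So were the 10 highest and 10 lowest differences among well covered HGNC-named members. Members of extreme difference, intronic members above 0 and genes with several peaks were added after their values were seen. Some members and sequences under this rule are not reported here. The members and lists were chosen with earlier results of these data known. Sequence was read from GRCh38 with pysam 0.24.0 within 500 bp of each center. Python 3.11.15, numpy 2.4.6, pandas 2.3.3, scipy 1.17.1 and matplotlib 3.10.9 were used, and the assignment was tested on simulated peaks. Alternatives changed the distances, the annotation, the filter on signal, the pseudocount, the size that counts and the motif window.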

Additional observations from a re-analysis of the deposited data

How the results depend on the processing

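Of 78 alternative values over 14 settings, 62 stayed within the error or within 1.5 times of the reported value, 16 moved and 0 reversed direction. Most of these values are counts or shares of peaks, which cannot change sign, so no reversal was possible for them. The error here is a 95% interval over peaks, which share the same libraries, so it holds no replicate error. With HGNC-named lncRNAs only, 432 peaks qualified, with a median difference of -0.685 and a median mock level of 4.85. Among members with a mean signal at or above the median of all peaks, the median difference was -0.72 and the median mock level 5.85. Their shares above 0, more than 0.5 above and more than 0.5 below the median of all peaks were 1.97%, 4.79% and 3.66%. Over all well covered peaks the same shares were 1.59%, 3.99% and 3.03%. Without peaks at a lowest value the medians were -0.69 and 4.78. With 8 reads added to both means, the median difference was -0.45 (all peaks -0.52), with 5.63% above and 1.62% below (all peaks 6.51% and 1.92%). With a size of 1 in place of 0.5 the shares were 1.95% and 1.84% (all peaks 2.44% and 1.37%). Within 250 bp of the center, 6.49% held the ISRE core. The share of all peaks in that narrower window is not given, so the 6.49% has no matching background. Adding the same reads to both means cannot turn a sign, so the share above 0 was fixed there. Of the 105 named peaks, 54 moved by more than 0.1 with 8 reads added, CYTOR from 0.70 to 0.20. No paired analysis was possible because the table holds only the means of each group, and for the same reason no library could be left out. Depth limits the members under 16 reads most, since a few reads make a difference of 1 there.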

Other observations

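Some lncRNAs of the lists have their start beside a coding start and were therefore not among the 924 members. IRF1-AS1 had 6.54 in the mock group and 6.06 with IFN-β, a difference of -0.48, and NRAV, a lncRNA known to act on antiviral genes, had 5.55 and 5.10, a difference of -0.45. FEZF1-AS1 had 2.89 and 2.94, a difference of 0.05. At the HOX clusters, HOTAIR had 3.09 and 1.60 (-1.49), HOTTIP had 4.36 and 3.06 (-1.30) and HOXA11-AS had 6.10 and 5.11 (-0.99). TERC, the RNA of telomerase, had 7.19 and 6.20 (-0.99), OIP5-AS1 had 6.59 and 5.43 (-1.16) and TMPO-AS1 had 7.54 and 6.50 (-1.04). The distance of these peaks from a coding start ran from 35 bp at IRF1-AS1 to 4744 bp at TERC.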
